A study of Homo sapiens with 14 samples.

Results

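Axon guidance receptors and semaphorins were followed by selective ribosome profiling, which counts ribosome-protected fragments (footprints) on the messages held by a tagged protein. The members were the 58 gene symbols of plexins, semaphorins of classes 3 to 7, neuropilins, ROBO receptors, UNC5 receptors, DCC, NEO1, EPHA and EPHB receptors and ephrin-B ligands, out of 19440 symbols in all. With at least 20 counts over the 14 libraries, 49 were analysed, and 46 of these were among the 9458 genes that entered the test. The smallest members analysed were EPHA6 with 34 counts and ROBO3 with 42, and the largest left out were SEMA3B with 12 and PLXNB3 with 9. DCC, EPHB6, ROBO4, SEMA5A and UNC5D were at 0 in every library.

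All libraries came from Flp-In T-REx 293, a human embryonic kidney line, after 72 h of doxycycline (0.5 to 1.0 ng/mL), which switched on a subunit of the EMC (ER membrane protein complex) carrying a 3Flag tag. The bait was EMC6 in cells knocked out for EMC6, or EMC7 or EMC10 in cells for which no knockout is labelled. Material held on Flag beads (IP) and the solubilized microsomes it was taken from (input) were profiled, with n = 2 of each for EMC6, 2 of each for EMC7 and 3 of each for EMC10. Since the libraries include no bead control lacking the tag, capture through the EMC and capture by the beads cannot be told apart.

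Guidance receptors are mostly type I membrane proteins. A signal peptide starts translocation, the long extracellular part enters the ER lumen, and a single hydrophobic segment near the middle or end of the chain anchors it. The ligands differ in this respect. Class 3 semaphorins are secreted and have no membrane segment, semaphorins of classes 4 to 6 and ephrin-Bs are type I proteins, and SEMA7A ends on a GPI anchor. The EMC is an insertase of the ER membrane, best known for inserting membrane segments of multi-pass and tail-anchored proteins. The comparison of IP with input therefore asks whether footprints on these single-pass and secreted proteins were enriched with the complex, and whether the anchored receptors differed from the secreted semaphorins.

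Gene counts per library ran from 515302 to 960279 in EMC6 IPs and from 1692490 to 1835892 in EMC6 inputs, against 1335235 to 3395114 in the libraries of the other lines. These counts include the bait message, which made up 0.449% and 0.431% of EMC6 IPs, 14.4% and 15% of EMC7 IPs and 24.6% to 26.1% of EMC10 IPs. Reads outside genes or ambiguous between them made up 9.28% to 12.5% of the EMC6 libraries and 2.76% to 5.15% of the others. The EMC6 line was thus the shallowest and stood apart. Each bait message rose with its own bait, by 7.54 ± 0.25 for EMC6, 5.71 ± 0.28 for EMC7 and 7.31 ± 0.18 for EMC10 on the log2 scale (± SE). Of the messages listed for this cell line, VIM, KRT8, KRT18 and NEFL had at least 55.8 CPM in every input, whereas NEFM had 1 count and LHX1 had 0 over all inputs and PAX2 stood at no more than 3.08 CPM. Levels below are CPM, counts scaled to a common library size with TMM. They are not set between genes, since no coding lengths were used. Footprints on a message count both its copies and the ribosomes on each, which cannot be told apart.

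Footprints on most members were enriched in the IP with every bait, and no member fell with this scaling. In edgeR's quasi-likelihood test with Benjamini-Hochberg adjustment over all genes, 25 of the 46 members rose with EMC6, 37 with EMC7 and 37 with EMC10. The shares of all tested genes that rose were 17.6%, 20.4% and 19.9%, and the shares that fell were 9.27%, 9.68% and 13.9%. Over the mean of the 3 lines 40 members rose and 0 fell, against 23.7% and 26.9% of all genes, and the members' median log2 change was 1.11, against -0.19 for all genes. The same 25 members rose with all 3 baits. Of all genes no more than 17.6%, the share risen with EMC6, can have done so. Of the 46 members 36 exceeded the all-gene median in each of the 7 pairs of IP and input. That number was not taken over all genes and only describes the members. Every IP lay above every input for 35 members with EMC6, 38 with EMC7 and 36 with EMC10, against 25.1%, 29.1% and 23% of all tested genes. Every IP lay below every input for 0, 1 and 1 members, against 30.4%, 36.7% and 26.9% of all tested genes. The number that rose with EMC6 depended on single libraries of that line, as did the share of all genes that rose. With the EMC6 libraries fitted alone 13 members rose, against 13.2% of all genes.

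These counts depend on the scaling. With factors taken from 50 ER luminal proteins, 15 rose with EMC6, 29 with EMC7 and 32 with EMC10, while 0, 4 and 2 fell. Of all genes 13.2%, 14.4% and 16.5% rose with that scaling, and 22.6%, 41.2% and 27.2% fell. With library size counted without the bait messages, 8, 24 and 14 members rose and 3, 4 and 4 fell, against 10.5%, 12.6% and 11.8% of all genes risen and 45%, 54.4% and 59.8% fallen. The median of all genes over the 3 lines, -0.19 with TMM, moved to -0.60 and -0.92 under these scalings and to -0.09 with DESeq2 size factors. Family medians are therefore given relative to that median.

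**Figure D1:**
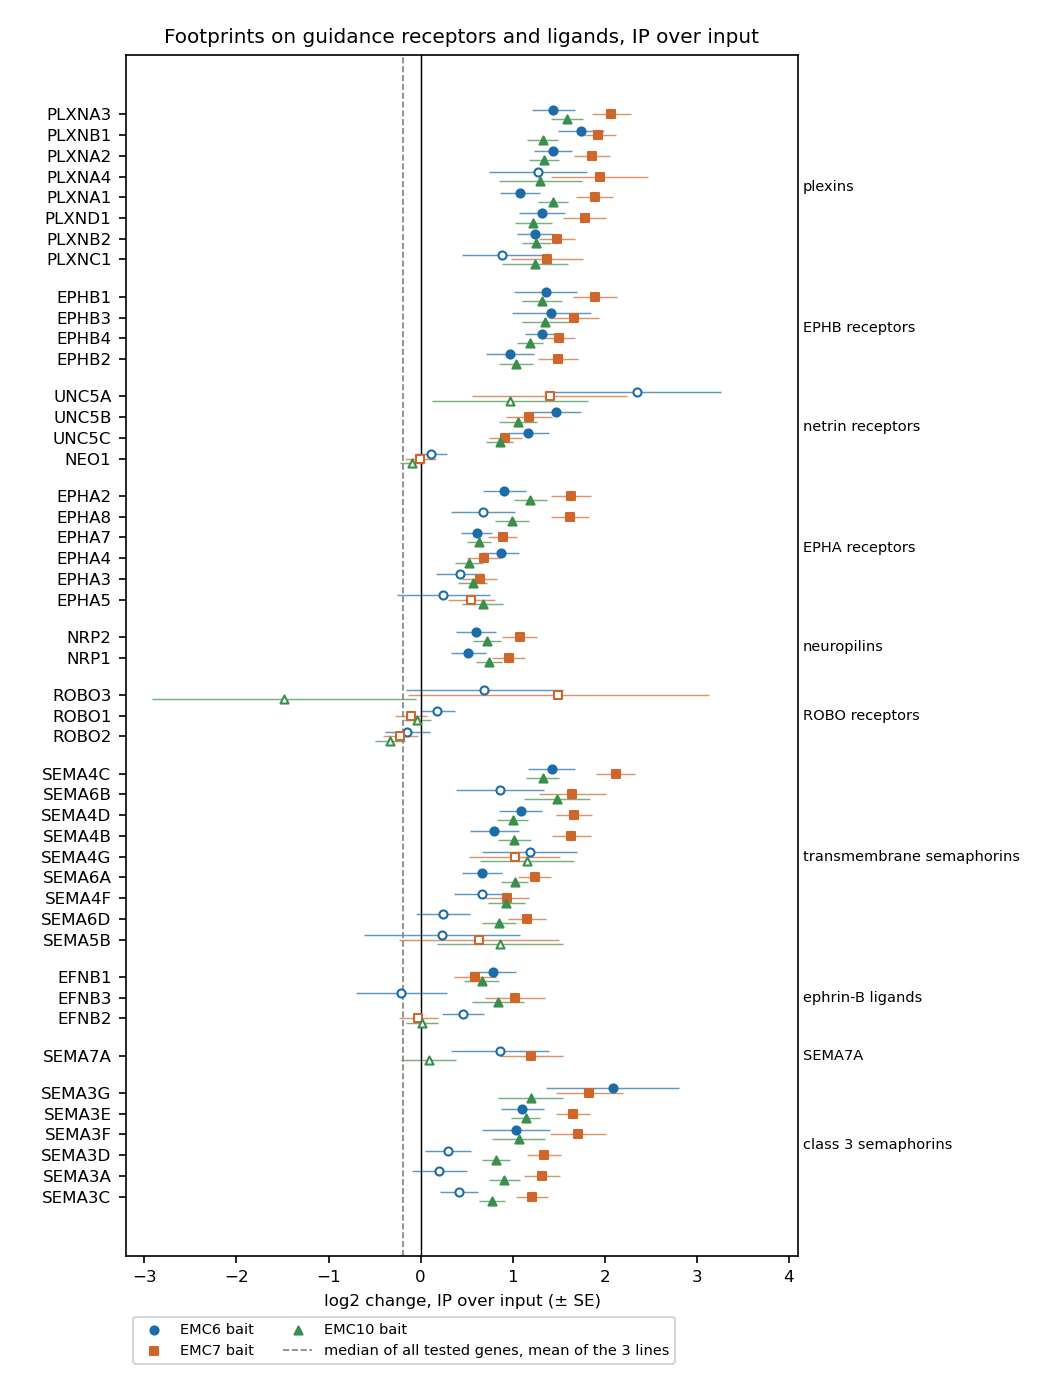
Log2 change of IP over input (± SE, horizontal axis) for the 46 tested members in rows by family, with the EMC6 bait as circles, EMC7 as squares and EMC10 as triangles; filled symbols passed the adjusted test. Plexins and EPHB receptors lie to the right of 1 with few exceptions, whereas NEO1, ROBO1 and ROBO2 lie near 0 with every bait.

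Plexins, the receptors for semaphorins, had the highest family median over the mean of the 3 lines, 1.68 above the median of all genes. With EMC6 alone EPHB receptors (1.46) and netrin receptors (1.44) stood slightly above plexins (1.42). The netrin median takes in UNC5A, which passed the count filter only through the EMC6 IPs. All 8 tested plexins rose over the mean of the 3 lines, from PLXNC1 at 1.17 ± 0.23 to PLXNA3 at 1.70 ± 0.12. PLXNA3 (chromosome X, 154458281 to 154477779, GRCh38), a partner of neuropilins in reading class 3 semaphorins, had 118 and 163 CPM in EMC6 IPs, against 34.7 and 70.1 CPM in EMC6 inputs. With EMC7 it had 224 and 236 CPM in IPs, against 55.4 and 53.7 CPM in inputs. With EMC10 the IPs had 190, 161 and 176 CPM, against 58.9, 59.8 and 55.5 CPM in inputs. No IP overlapped an input of its line, and the log2 changes were 1.44 ± 0.23, 2.07 ± 0.21 and 1.59 ± 0.18 (adjusted p = 5.19e-06, 3.45e-10 and 1.6e-09).

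PLXNC1, the receptor for SEMA7A, was among the plexins with few counts, 266 in all. It had 16.8 and 16.4 CPM in EMC6 IPs, against 5.42 and 12.3 CPM in EMC6 inputs. Its IPs had 18.7 and 13.6 CPM with EMC7, against 6.52 and 6.11 CPM in inputs, and 10.8, 17.9 and 8.6 CPM with EMC10, against 3.71, 6.38 and 5.89 CPM in inputs. IP and input did not overlap in any line, but the change passed the test with EMC7 and EMC10 (1.37 ± 0.39 and 1.24 ± 0.36, adjusted p = 0.00622 and 0.00672) and not with EMC6 (0.89 ± 0.44, adjusted p = 0.139). The other plexins lay between them. PLXNB1, the receptor for SEMA4D, stood at 1.67 ± 0.12 over the 3 lines, PLXNA2 at 1.55 ± 0.11, PLXNA4 at 1.51 ± 0.29, PLXNA1 at 1.47 ± 0.11, PLXND1, which binds SEMA3E, at 1.44 ± 0.13 and PLXNB2 at 1.33 ± 0.11.

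Neuropilins hold class 3 semaphorins for the plexins and have short cytosolic tails. Both rose with every bait, less than the plexins. NRP2 had 129 and 149 CPM in EMC6 IPs, against 69.1 and 115 CPM in EMC6 inputs, and 570 and 519 CPM in EMC7 IPs, against 286 and 231 CPM in EMC7 inputs. In the EMC10 line it had 418, 359 and 387 CPM in IPs, against 204, 237 and 264 CPM in inputs. Its log2 changes were 0.60 ± 0.22, 1.08 ± 0.19 and 0.72 ± 0.16 (adjusted p = 0.0381, 1.67e-05 and 0.000328). NRP1 had 222 and 291 CPM in EMC6 IPs, against 153 and 209 CPM in EMC6 inputs, and 889 and 920 CPM in EMC7 IPs, against 489 and 443 CPM in EMC7 inputs. With EMC10 the IPs had 712, 588 and 760 CPM, against 380, 399 and 452 CPM in inputs, and its change over the mean of the 3 lines was 0.74 ± 0.10. For NRP1 no IP lay below an input of its line.

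EPHB receptors, the tyrosine kinases that bind ephrin-Bs, had a median 1.60 above the all-gene one, and 4 of 4 rose with each bait. EPHB1 had 20.6 and 32.9 CPM in EMC6 IPs, against 10.5 and 11.3 CPM in EMC6 inputs. It had 67.6 and 54.3 CPM in EMC7 IPs, against 17.0 and 16.1 CPM in EMC7 inputs, and 53.0, 37.6 and 32.5 CPM in EMC10 IPs, against 18.3, 16.7 and 13.1 CPM in EMC10 inputs. The groups were apart in each line, with changes of 1.36 ± 0.34, 1.89 ± 0.24 and 1.32 ± 0.21 (adjusted p = 0.00223, 3.19e-08 and 4.27e-06). EPHB2 rose least in the family (1.17 ± 0.13 over the 3 lines). It had 41.1 and 103 CPM in EMC6 IPs, against 32.2 and 45.9 CPM in EMC6 inputs, where IP replicate 1 lay below input replicate 2. In EMC7 IPs it had 225 and 192 CPM, against 84.5 and 63.4 CPM in EMC7 inputs, and in EMC10 IPs 142, 144 and 141 CPM, against 68.4, 72.5 and 67.5 CPM in EMC10 inputs. EPHB4 shares genomic positions with SLC12A9, so reads of the pair cannot be told apart in its rise of 1.34 ± 0.10. EPHB3 rose by 1.48 ± 0.19.

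EPHA receptors, which bind mainly the GPI-anchored ephrin-As, rose less as a family: their median stood at 0.89, and 3 of 6 rose with EMC6, 5 with EMC7 and 6 with EMC10. EPHA2 led them, with 219 and 370 CPM in EMC6 IPs, against 109 and 209 CPM in EMC6 inputs, and 866 and 772 CPM in EMC7 IPs, against 280 and 246 CPM in EMC7 inputs. Its EMC10 IPs had 552, 502 and 585 CPM, against 235, 239 and 244 CPM in inputs. All IPs lay above the inputs of their line, and the changes were 0.91 ± 0.23, 1.64 ± 0.22 and 1.19 ± 0.18. EPHA5 rose least, by 0.49 ± 0.21 over the 3 lines (adjusted p = 0.0486). Its counts were 5 and 8 in EMC6 IPs, against 22 and 21 in EMC6 inputs, which scale to 9.35 and 8.76 CPM against 7.96 and 7.19 CPM. In the other lines it had 40.3 and 36.6 CPM in EMC7 IPs, against 23.5 and 29.6 CPM in EMC7 inputs, and 21.7, 39.4 and 43.9 CPM in EMC10 IPs, against 19.2, 20.01 and 28.4 CPM in EMC10 inputs. The median of the EPHB receptors exceeded that of the EPHA receptors in 7 of 7 pairs, by 0.59 ± 0.30 (SD over pairs, n = 7), a description of these pairs with no test. EPHA8 stood at 1.10 ± 0.15 over the 3 lines, EPHA7 at 0.71 ± 0.09, EPHA4 at 0.69 ± 0.10 and EPHA3 at 0.54 ± 0.12. The changes of EPHA3, EPHA4, EPHA5 and EPHA7 came to -0.19, -0.04, -0.24 and -0.02 with library size counted without the bait messages. EPHA6, with 0 counts in EMC6 IPs against 2 in EMC6 inputs, 3 in EMC7 IPs against 7 in EMC7 inputs and 7 in EMC10 IPs against 15 in EMC10 inputs, was too low to test, as was EPHA10 with 43 counts in all.

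The netrin receptors split. UNC5B and UNC5C, repulsive receptors, rose with each bait, by 1.23 ± 0.14 and 0.98 ± 0.11 over the 3 lines. UNC5A, with 75 counts in all, stood highest at 1.57 ± 0.51 over the 3 lines (adjusted p = 0.01) but passed with no single bait and not over the mean of EMC7 and EMC10 (1.18 ± 0.60, adjusted p = 0.109), an alternative added after the data were seen. UNC5A got past the count filter only through the EMC6 IPs, where it was high. Its place among the 40 risen members therefore gives no support for enrichment. It had 4 and 8 counts in EMC6 IPs, against 2 and 7 in EMC6 inputs, 11 and 1 in EMC7 IPs, against 11 and 3 in EMC7 inputs. Its counts were 0, 8 and 1 in EMC10 IPs, against 9, 9 and 1 in EMC10 inputs. NEO1 (chromosome 15, 73051692 to 73305206), a relative of DCC that also binds the repulsive guidance molecules, was not enriched, although it had 21136 counts. NEO1 had 353 and 427 CPM in EMC6 IPs, against 317 and 410 CPM in EMC6 inputs, and 814 and 748 CPM in EMC7 IPs, against 761 and 805 CPM in EMC7 inputs. In the EMC10 line it had 614, 628 and 740 CPM in IPs, against 658, 729 and 730 CPM in inputs. IP and input overlapped in each line, with changes of 0.11 ± 0.17, -0.00 ± 0.16 and -0.09 ± 0.14 (adjusted p = 0.698, 0.995 and 0.64).

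The ROBO receptors, which read SLIT ligands, stayed near the median of all genes (family median 0.20 above it), and none passed the test with any bait or over the 3 lines. ROBO2 had 43.0 and 46.0 CPM in EMC6 IPs, against 42.7 and 56.1 CPM in EMC6 inputs, and 93.5 and 70.0 CPM in EMC7 IPs, against 102 and 90.7 CPM in EMC7 inputs. With EMC10 it had 72.3, 78.8 and 71.7 CPM in IPs, against 84.6, 97.2 and 99.6 CPM in inputs. The groups overlapped with EMC6 and EMC7, and with EMC10 every IP lay below every input, which held for 26.9% of all tested genes. ROBO2 changed by -0.14 ± 0.24, -0.22 ± 0.19 and -0.33 ± 0.16 (adjusted p = 0.718, 0.424 and 0.11). Blocking on the replicate number gave its EMC10 change as -0.34 ± 0.12 (adjusted p = 0.0183), a fall called for 18.9% of all genes. Over the 3 lines the block gave -0.25 ± 0.10 (adjusted p = 0.0204), where 29.7% of all genes fell.

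ROBO1, its neighbour on chromosome 3, had 208 and 204 CPM in EMC6 IPs, against 159 and 203 CPM in EMC6 inputs, and 324 and 336 CPM in EMC7 IPs, against 370 and 338 CPM in EMC7 inputs. Its EMC10 IPs had 264, 306 and 366 CPM, against 288, 319 and 355 CPM in EMC10 inputs, and its change over the 3 lines was 0.01 ± 0.10 (adjusted p = 0.917). Both IPs of ROBO1 lay above both inputs with EMC6 and below both with EMC7, separations that 25.1% and 36.7% of all tested genes showed, and the fractions overlapped with EMC10. ROBO3 had 42 counts in all and gave no readable change (0.24 ± 0.86 over the 3 lines, adjusted p = 0.843). It had 3 and 4 counts in EMC6 IPs, against 5 and 12 in EMC6 inputs, and at most 2 in any IP of the other lines. NEO1, ROBO1 and ROBO2 fell with scaling on the ER luminal list, by 0.40, 0.39 and 0.64 over the 3 lines (adjusted p = 1.3e-05, 0.000168 and 4.15e-05). With that scaling 55.5% of all genes fell, and their median of -0.60 lay below the values of NEO1 and ROBO1. These receptors also fell with library size counted without the bait messages, as did 71% of all genes. The plexin median exceeded the ROBO median in 7 of 7 pairs, by 1.61 ± 0.33 (SD, n = 7), a contrast chosen after the values were seen.

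**Figure D2:**
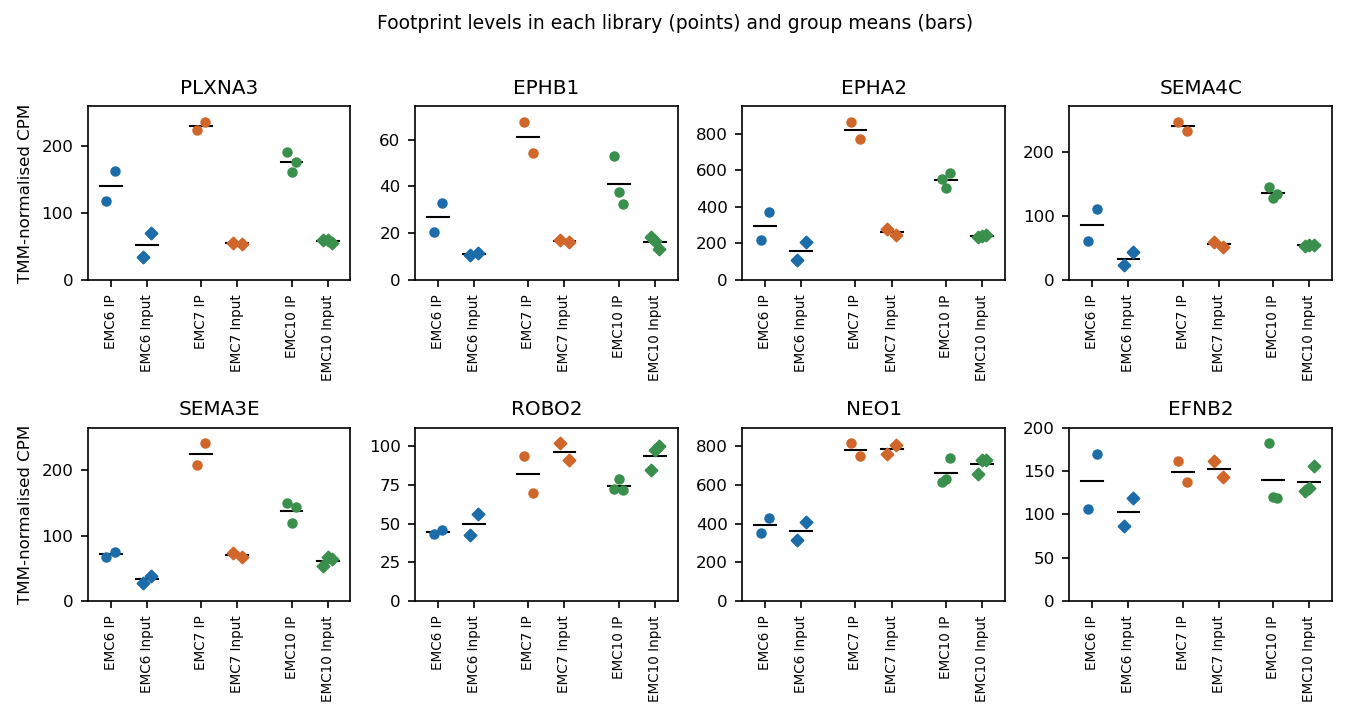
TMM-normalised CPM (vertical axis, from 0) of 8 members in every library, with IP left of input in each line; bars are group means. PLXNA3, EPHB1, EPHA2, SEMA4C and SEMA3E lie higher in IPs than in inputs of each line, whereas ROBO2, NEO1 and EFNB2 overlap between fractions or, for ROBO2 with EMC10, lie lower in IPs.

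Among the type I ligands, the family median of transmembrane semaphorins was 1.31 above the all-gene one, and 8 of 9 tested members rose over the 3 lines. SEMA4C, a ligand of PLXNB2, rose most, with 59.8 and 111 CPM in EMC6 IPs, against 22.8 and 43.1 CPM in EMC6 inputs. It had 247 and 233 CPM in EMC7 IPs, against 59.3 and 50.8 CPM in EMC7 inputs, and 145, 127 and 135 CPM in EMC10 IPs, against 52.9, 55.0 and 53.6 CPM in EMC10 inputs. The groups did not overlap, and the changes were 1.42 ± 0.26, 2.12 ± 0.21 and 1.33 ± 0.18 (adjusted p = 3.39e-05, 1.9e-10 and 1.41e-07). SEMA5B, the lowest, was uneven between replicates, with 1 and 21 counts in EMC6 IPs, against 16 and 56 in EMC6 inputs, 13 and 11 in EMC7 IPs, against 42 and 8 in EMC7 inputs. Its counts were 11, 22 and 6 in EMC10 IPs, against 27, 43 and 20 in EMC10 inputs. Its change of 0.58 ± 0.47 did not pass (adjusted p = 0.329). Between them lay SEMA6B at 1.33 ± 0.24, SEMA4D at 1.25 ± 0.12, SEMA4B at 1.15 ± 0.13, SEMA4G at 1.12 ± 0.29, SEMA6A at 0.98 ± 0.10, SEMA4F at 0.85 ± 0.15 and SEMA6D at 0.75 ± 0.14. SEMA4G shares positions with MRPL43 and SEMA4D with SECISBP2. SEMA6C, with 115 counts, was not tested and had 8 counts over EMC6 IPs against 16 over EMC6 inputs, 19 against 19 with EMC7 and 18 against 35 with EMC10.

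Ephrin-Bs, the transmembrane ligands of EPHB receptors, were among the lower families (median 0.74 above that of all genes). EFNB1 rose with each bait, by 0.79 ± 0.25, 0.59 ± 0.23 and 0.66 ± 0.19 (adjusted p = 0.0183, 0.0462 and 0.00555). It had 97.2 and 164 CPM in EMC6 IPs, against 58.6 and 97.2 CPM in EMC6 inputs, and 199 and 151 CPM in EMC7 IPs, against 138 and 95.5 CPM in EMC7 inputs. Its EMC10 IPs had 163, 168 and 216 CPM, against 108, 117 and 121 CPM in EMC10 inputs. EFNB2 did not pass with any bait. EFNB2 had 107 and 170 CPM in EMC6 IPs, against 86.4 and 119 CPM in EMC6 inputs, and 162 and 137 CPM in EMC7 IPs, against 161 and 143 CPM in EMC7 inputs. With EMC10 it had 182, 120 and 118 CPM in IPs, against 127, 131 and 155 CPM in inputs, so its groups overlapped in each line. EFNB3 passed with EMC7 (1.03 ± 0.33, adjusted p = 0.0148) and EMC10 (0.84 ± 0.28, adjusted p = 0.0192), and stood at -0.21 ± 0.49 with EMC6, where it had 4 and 11 counts in IPs, against 24 and 44 in inputs.

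SEMA7A, the GPI-anchored semaphorin, passed with EMC7 alone among the single baits (1.20 ± 0.35, adjusted p = 0.00642). Over the mean of the 3 lines it rose by 0.72 (adjusted p = 0.0111 in edgeR's test). It had 25.2 and 12.5 CPM in EMC7 IPs, against 8.14 and 9.01 CPM in EMC7 inputs. Its levels were 7.48 and 11.0 CPM in EMC6 IPs, against 6.51 and 4.11 CPM in EMC6 inputs, and 12.0, 17.0 and 11.5 CPM in EMC10 IPs, against 10.9, 11.4 and 16.6 CPM in EMC10 inputs. The fractions overlapped with EMC10, and the difference between baits for SEMA7A did not pass the test.

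The 6 tested class 3 semaphorins, secreted ligands with no membrane segment, rose in 6 of 6 cases with EMC7, 6 of 6 with EMC10 and 3 of 6 with EMC6, with a median 1.23 above the all-gene one. SEMA3E (chromosome 7, 83363238 to 83649139), the ligand of PLXND1, had 67.3 and 75.6 CPM in EMC6 IPs, against 28.2 and 38.7 CPM in EMC6 inputs. In the EMC7 line it had 208 and 241 CPM in IPs, against 73.3 and 68.2 CPM in inputs, and in the EMC10 line 149, 119 and 143 CPM in IPs, against 53.3, 67.5 and 65.1 CPM in inputs. IPs were higher throughout, by 1.10 ± 0.24, 1.66 ± 0.19 and 1.14 ± 0.16 (adjusted p = 0.000385, 2.28e-09 and 2.13e-07). SEMA3F and SEMA3G, which are far shallower, also passed with each bait. SEMA3F had 13.1 and 35.1 CPM in EMC6 IPs, against 11.2 and 14.4 CPM in EMC6 inputs, 39.5 and 32.4 CPM in EMC7 IPs, against 11.4 and 10.6 CPM in EMC7 inputs, and 21.7, 26.9 and 17.2 CPM in EMC10 IPs, against 7.19, 11.9 and 12.6 CPM in EMC10 inputs. SEMA3G had 3 and 7 counts in EMC6 IPs, against 1 and 8 in EMC6 inputs, 28 and 23 in EMC7 IPs, against 25 and 20 in EMC7 inputs. Its counts were 13, 8 and 16 in EMC10 IPs, against 25, 24 and 19 in EMC10 inputs. Its change over the 3 lines was 1.70 ± 0.31.

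SEMA3A, SEMA3C and SEMA3D, which lie with SEMA3E on the long arm of chromosome 7, passed with EMC7 and EMC10 but not with EMC6. SEMA3A, the ligand of NRP1 with A-type plexins, had 54.2 and 25.2 CPM in EMC6 IPs, against 34.0 and 30.1 CPM in EMC6 inputs. It had 197 and 219 CPM in EMC7 IPs, against 86.1 and 80.1 CPM in EMC7 inputs, and 131, 115 and 144 CPM in EMC10 IPs, against 54.2, 77.8 and 75.3 CPM in EMC10 inputs. The fractions overlapped with EMC6 alone, and the changes were 0.20 ± 0.30, 1.32 ± 0.20 and 0.91 ± 0.17 (adjusted p = 0.668, 1.26e-06 and 4.74e-05). SEMA3C had 97.2 and 103 CPM in EMC6 IPs, against 72.0 and 78.4 CPM in EMC6 inputs, 434 and 435 CPM in EMC7 IPs, against 183 and 193 CPM in EMC7 inputs, and 275, 272 and 336 CPM in EMC10 IPs, against 159, 164 and 192 CPM in EMC10 inputs. SEMA3D had 48.6 and 55.9 CPM in EMC6 IPs, against 39.1 and 46.9 CPM in EMC6 inputs, 268 and 278 CPM in EMC7 IPs, against 114 and 102 CPM in EMC7 inputs, and 184, 134 and 204 CPM in EMC10 IPs, against 92.0, 107 and 95.9 CPM in EMC10 inputs. For SEMA3C and SEMA3D the IPs lay above the inputs in each line, but the changes with EMC6 were 0.42 ± 0.20 and 0.30 ± 0.25 (adjusted p = 0.13 and 0.413).

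The anchored receptors and the secreted semaphorins had medians that lay within the spread between pairs. The median of the 27 tested type I receptors minus that of the 6 class 3 semaphorins was 0.24 with EMC6, -0.02 with EMC7 and 0.05 with EMC10, and 0.12 over the mean of the 3 lines. Per pair the difference ran from -0.16 to 0.51 with a mean of 0.12 ± 0.27 (SD, n = 7), above 0 in 4 pairs and below it in 3. Over the 3 lines 23 of 27 receptors, 10 of 12 type I ligands and 6 of 6 class 3 semaphorins rose, against 23.7% of all genes. The 23 include UNC5A, and the 27 also hold ROBO3. Both passed the count filter only through EMC6 libraries and give no support here. Within the receptors the spread was wider than the difference between the classes. Plexins lay above the class 3 semaphorins in 7 of 7 pairs (by 0.47 ± 0.28, SD, n = 7). That contrast was not planned and takes the family with the highest median. NEO1, ROBO1 and ROBO2 stood at 0.00, 0.01 and -0.23 over the 3 lines. Both EMC6 pairs, at 0.51 and 0.36, lay above every pair of the other lines, and the SD over the 7 pairs takes in this spread between lines. The difference with EMC6 moved with single libraries. It was 0.02 without input replicate 1 of that line and 0.53 without its input replicate 2.

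**Figure D3:**
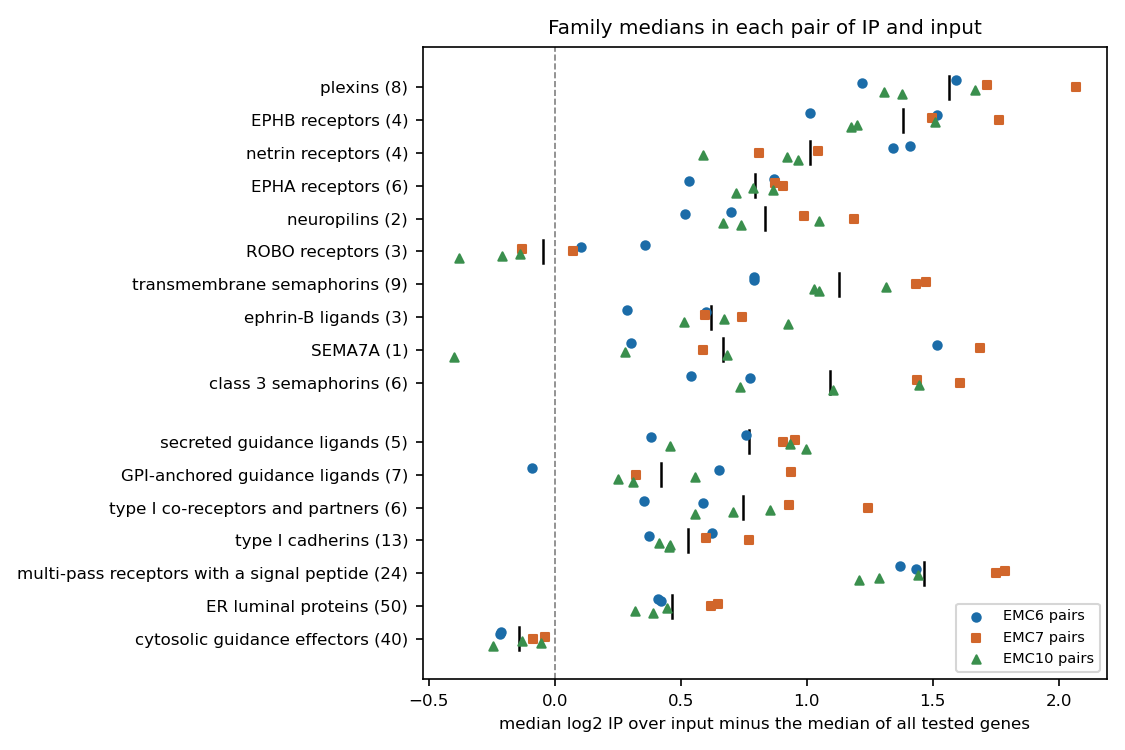
Median log2 IP over input of each family (number of tested genes in parentheses) minus the median of all tested genes, one point per pair of IP and input, with the mean of the 7 pairs as a bar. Class 3 semaphorins overlap the receptor families other than ROBO, ROBO receptors lie around 0, and cytosolic guidance effectors lie below 0 in every pair.

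Other genes of the guidance pathways were described from lists by the location of their products. Of the 5 tested secreted ligands outside the semaphorins (SLITs, netrins and DRAXIN) 4 rose over the 3 lines, with a median 0.97 above that of all genes, NTN1 at 0.92 ± 0.09 and SLIT2, a ROBO ligand, at 0.51 ± 0.09. Of all tested genes 23.7% rose over the 3 lines. GPI-anchored ligands (ephrin-As, repulsive guidance molecules and netrin-Gs) stood at 0.49 with 2 of 7 risen (28.6%), near that share. They ran from RGMA, a NEO1 ligand, at 0.79 ± 0.28 to EFNA5 at -0.01 ± 0.12. Type I co-receptors and partners stood at 0.71 with 3 of 6 risen, from LINGO1 at 1.20 ± 0.15 to the adhesion protein NRCAM at -0.02 ± 0.11. The 40 cytosolic effectors that act below these receptors had a median 0.02 above the all-gene one, with 1 risen and 13 fallen (26.9% of all genes fell), from the kinase SRC at 0.48 ± 0.15 to the adaptor NCK1 at -1.27 ± 0.42. In the single pairs the median of these effectors lay below the all-gene one in 7 of 7 cases, by a mean of -0.14 ± 0.09 (SD, n = 7). The all-gene median was -0.09 to 0.03 in the pairs and -0.19 in the fit over the 3 lines. The 2 values for the effectors thus have different baselines, and their side of the all-gene median depends on the measure.

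As points of comparison, 7 of 13 tested type I cadherins rose over the 3 lines (median 0.71), 29 of 50 ER luminal proteins (0.59) and 24 of 24 multi-pass receptors made with a signal peptide (1.61). The share of all tested genes that rose was 23.7%. The share of risen members, 40 of 46 with a median of 1.30, lay between those of the luminal list and the multi-pass list. These medians describe the lists and were not tested against each other.

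Changes of the members with the 3 baits were set side by side. Over the 46 tested members, which share libraries and depth within a line, the log2 changes correlated at r = 0.67 and rho = 0.73 between EMC6 and EMC7, at 0.53 and 0.75 between EMC6 and EMC10, and at 0.65 and 0.84 between EMC7 and EMC10. The members' median change was 0.87 with EMC6, 1.36 with EMC7 and 1.00 with EMC10. In the test of the difference itself no member passed for EMC6 minus EMC7, EMC6 minus EMC10 or EMC7 minus EMC10, in edgeR or in DESeq2. Among all genes 0.518%, 0.074% and 0.159% were called after adjustment. At an unadjusted p below 0.05 there were 11, 1 and 9 members (23.9%, 2.17% and 19.6%), against 8.96%, 6.24% and 6.57% of all genes.

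Pairing IP and input by their replicate number changed the calls. The labels give that number under a batch tag, but deviations of same-numbered samples correlated at 0.28 with EMC6 and at only 0.0439 to 0.0971 in the other lines. With a replicate block 12 members were lower with EMC6 than with EMC7 and 0 higher, against 3.49% and 2.82% of all genes. With EMC7 9 members were higher than with EMC10 and 0 lower, against 3.68% and 0.698% of all genes. The first set held SEMA3A, SEMA3C and SEMA3D, with blocked differences of -1.10 ± 0.26, -0.80 ± 0.18 and -1.06 ± 0.23 (adjusted p = 0.000969, 0.000297 and 0.000137 in edgeR's test), and also NRP1, NRP2, PLXNA1, PLXNA3, EPHA2, SEMA4B, SEMA4C, SEMA6A and SEMA6D. The second set held PLXNA1, PLXNA2, PLXNB1, EPHA2, SEMA3C, SEMA3D, SEMA3E, SEMA4C and SEMA4D, led by SEMA4C at 0.79 ± 0.17 (adjusted p = 0.000172). For EMC6 minus EMC10 the block called 0 members, against 1.88% of all genes higher and 0.349% lower. EPHA2, PLXNA1, SEMA3C, SEMA3D and SEMA4C were in both sets, so the block called their changes higher with EMC7 than with EMC6 and with EMC10. The EMC6 and EMC7 lines gave 2 pairs each. The EMC6 libraries had lower depth and a higher share of reads outside genes, and whether that bears on the first set was not tested.

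Before the IP, most members were lower in EMC6 inputs than in the other inputs with TMM scaling. Against the mean of EMC7 and EMC10 inputs 31 of 46 members were lower and 1, ROBO3, was higher (adjusted test in edgeR). Of all genes 21.8% and 15.3% were called in these directions. ROBO3 passed the count filter through EMC6 libraries alone, so its call gives no support for a higher level. It had 17 counts over EMC6 inputs, 2 over EMC7 inputs and 13 over EMC10 inputs. EPHA7 averaged 248 ± 38 CPM in EMC6 inputs, against 654 ± 35 CPM in EMC7 inputs and 606 ± 38 CPM in EMC10 inputs (SD, n = 2, 2 and 3), a log2 difference of -1.34 ± 0.14 (adjusted p = 4.86e-09). NRP1 averaged 181 ± 39 CPM in EMC6 inputs, against 466 ± 33 CPM in EMC7 inputs and 410 ± 37 CPM in EMC10 inputs. SEMA3C averaged 75.2 ± 4.5 CPM in EMC6 inputs, against 188 ± 7 CPM in EMC7 inputs and 172 ± 18 CPM in EMC10 inputs. In each case the EMC6 inputs did not overlap the others, a separation that was not counted over all genes. Many genes differed here, since 45.1% of all genes and 71.7% of members had an unadjusted p below 0.05 in edgeR.

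The family medians of this difference were set side by side without a test. EPHA receptors (6 of 6 lower, median -1.36 relative to all genes), neuropilins (2 of 2, -1.41) and class 3 semaphorins (5 of 6, -1.32) lay lowest, and plexins near the middle of the genes (3 of 8, -0.16), with PLXNA2 at -0.09 ± 0.17, PLXNA3 at -0.10 ± 0.18 and PLXND1 at 0.34 ± 0.19. ER luminal proteins were lower in 47 of 50 cases with a median of -1.06, whereas cytosolic effectors stood at 0.13. With scaling on the ER luminal list, which moved the median of all genes to 1.07, 18 members were higher in EMC6 inputs and 5 were lower, against 72.5% and 2.85% of all genes. With library size counted without the bait messages 5 were higher and 21 lower, against 35.6% and 15.5% of all genes. The counts with TMM scaling also moved without EMC6 input replicate 1, as did the shares of all genes, with a single EMC6 input left. The line, its knockout background and its libraries cannot be told apart here. Between EMC7 and EMC10 inputs no member differed in edgeR or DESeq2 after adjustment, where 0.0211% of all genes were called. At an unadjusted p below 0.05 there was 1 member (2.17%), against 1.7% of all genes.

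**Figure D4:**
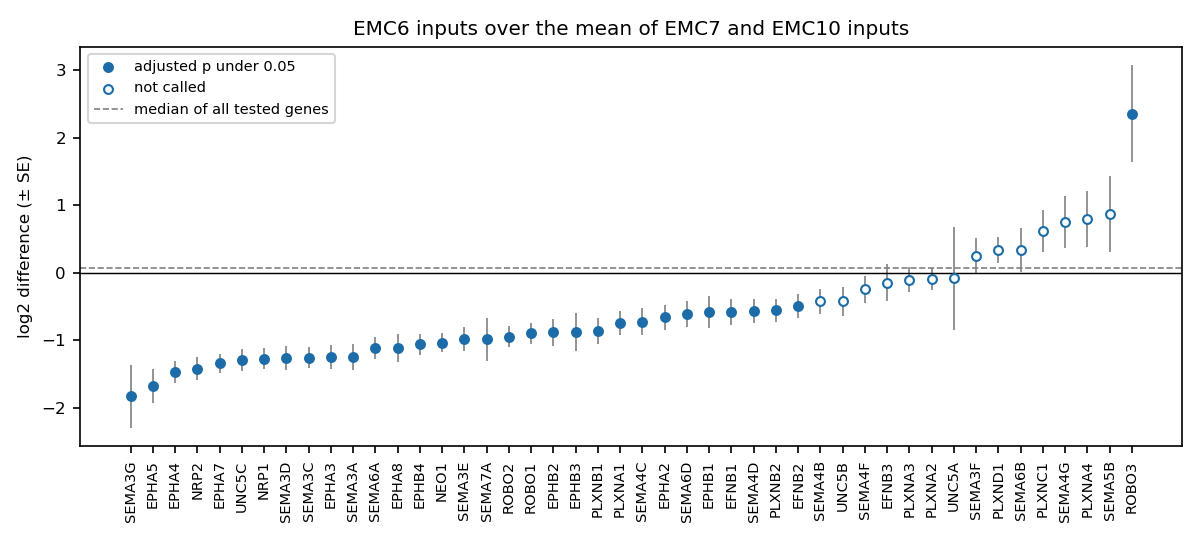
Log2 difference (± SE, vertical axis) of EMC6 inputs over the mean of EMC7 and EMC10 inputs for the 46 tested members, ordered by size; filled points passed the adjusted test and the dashed line is the median of all tested genes. EPHA receptors, neuropilins and most class 3 semaphorins are on the left, and ROBO3, PLXNA4 and PLXNC1 on the right. ROBO3 passed the count filter through EMC6 libraries alone.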

How the data were processed

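Footprints were counted per gene in 14 libraries. Raw counts, whole numbers for each gene symbol, are what the authors deposited. The submitters' processing notes list cutadapt 4.1, Bowtie2 2.2.6, TopHat2 2.1.0 and hg38. Annotation, strand setting and handling of duplicate reads: not given in the sources used here. Reads of overlapping genes (EPHB4, PLXNA3, PLXNC1, SEMA4D, SEMA4G, UNC5A) or antisense genes cannot be told apart.

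All libraries entered 1 fit in edgeR 4.0.16 (R 4.3.3) with a mean per group, TMM, filterByExpr and a robust quasi-likelihood test, adjusted over 9458 genes at 0.05. Pair ratios used 0.5 added counts. The 58 members were matched to RefSeq positions (GRCh38.p14). Per family, the highest and lowest tested member and each class 3 semaphorin are given in full. The members, families and lists were chosen with earlier results of these data known. No label ties replicates to separate cultures, so the p-values reflect spread that may be technical. Replicates correlated at 0.915 to 0.988 across genes and differed by more than sampling noise (chi-square over its degrees of freedom 1.92 to 8.45). IP and input of a line carry the same replicate number in the labels' batch tag, and were paired on it in an alternative. Deviations of same-numbered samples correlated at 0.28 (EMC6), 0.0763 (EMC7) and 0.0439 to 0.0971 (EMC10). Steps were tested on simulated counts. DESeq2 1.42.0, other scalings, filters, a replicate block, a test against a fold of 1.5 and fits without each library were alternatives; the mean without the EMC6 line was added after the data were seen. Protein features were not analysed here.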

Additional observations from a re-analysis of the deposited data

How the results depend on the processing

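Counts of risen members were within 1.5 times of those reported under DESeq2, its size factors and other filters on low counts. Scaling, single EMC6 libraries and the replicate block moved them, and the cause was not tested. With library size counted without the bait messages, 8 members rose and 3 fell with EMC6, 24 and 4 with EMC7, 14 and 4 with EMC10, and 23 and 4 over the 3 lines. Over the 3 lines 14.5% of all genes rose and 71% fell with that scaling. With scaling on the ER luminal list, 15 rose with EMC6, and 4, 2 and 3 fell with EMC7, EMC10 and over the 3 lines. Over the 3 lines 55.5% of all genes fell with the luminal scaling. A test against a fold of 1.5 called 13 risen with EMC6 and 19 with EMC10, against 11.9% and 13.5% of all genes. The EMC6 libraries fitted alone called 13, against 13.2% of all genes. The replicate block called 12 members for EMC6 minus EMC7 and 9 for EMC7 minus EMC10, and 1 fallen member (ROBO2) with EMC10 and over the 3 lines. It moved no other count of calls by over 1.5 times. Leaving out 1 library at a time gave 11 to 35 risen members with EMC6, 31 to 37 with EMC7, 31 to 38 with EMC10 and 35 to 40 over the 3 lines, with 0 to 1 fallen over the 3 lines. It gave 0 to 6 called for EMC6 minus EMC7, 0 to 1 for EMC6 minus EMC10, and 27 to 34 for the EMC6 inputs. A group left with 1 library was assumed to vary like the others. The shares of all genes called moved in these fits as well, so the ranges are not a result about the members. The receptor minus class 3 semaphorin difference ran from 0.0166 to 0.53 with EMC6, -0.13 to 0.11 with EMC7, -0.01 to 0.21 with EMC10 and 0.05 to 0.29 over the 3 lines, and was 0.58 with the EMC6 libraries alone. The low depth of EMC6 IPs limits members with few counts, such as SEMA3G, EPHA5 and UNC5A.
Log2 values with EMC6 under library size without baits changed sign to EPHA7 -0.0833, NEO1 -0.59, NRP1 -0.18, NRP2 -0.0954, ROBO1 -0.51 and SEMA6A -0.0309. Log2 values with EMC7 under library size without baits changed sign to EFNB1 -0.21, EPHA3 -0.15 and EPHA4 -0.11. Log2 values with EMC10 under library size without baits changed sign to EFNB1 -0.0411, EFNB2 -0.68, EPHA3 -0.14, EPHA4 -0.17, EPHA5 -0.0263 and EPHA7 -0.0675. Log2 values over the 3 lines under library size without baits changed sign to EFNB1 -0.0544, EFNB2 -0.58, EFNB3 -0.18, EPHA3 -0.19, EPHA4 -0.0361, EPHA5 -0.24, EPHA7 -0.0186, NEO1 -0.73, ROBO1 -0.72 and SEMA7A -0.0167. Log2 values with EMC7 under ER luminal scaling changed sign to EFNB1 -0.0141. Log2 values over the 3 lines under ER luminal scaling changed sign to NEO1 -0.40 and ROBO1 -0.39. Log2 values between EMC6 and other inputs under ER luminal scaling changed sign to EFNB1 0.40, EFNB2 0.50, EFNB3 0.84, EPHA2 0.31, EPHB1 0.41, EPHB2 0.11, EPHB3 0.13, PLXNA1 0.24, PLXNA2 0.89, PLXNA3 0.86, PLXNB1 0.11, PLXNB2 0.41, ROBO1 0.0995, ROBO2 0.0492, SEMA3E 0.005938, SEMA4B 0.56, SEMA4C 0.25, SEMA4D 0.41, SEMA4F 0.74, SEMA6D 0.36, SEMA7A 0.0195 and UNC5B 0.54.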
